A study of Homo sapiens with 8 samples.

Results

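Trophoblast, amnion, yolk sac endoderm and epithelial keratin genes were examined in H1 human embryonic stem cells, 45 genes in all, of which 43 had at least 1 probe set assigned to them alone among the 19775 genes so represented on the array. The genes were chosen by symbol: 18 are known from trophoblast or amnion, 15 from yolk sac endoderm, and 12 are keratins or genes of epithelial cells. H1 is an established human cell line that was grown over irradiated mouse embryonic fibroblasts. Its cells were sorted on a flow cytometer by forward scatter, which rises with cell size, and side scatter, which rises with granularity. A small fraction and a large fraction of the same untreated line were each collected in 4 sorts, described by the submitters as biological repeats, and each was hybridised to its own Affymetrix U133 Plus 2.0 array of probe sets for human transcripts. The comparison asked which of these transcripts distinguish the small from the large cells.

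Trophoblast is the outer layer of the early embryo that forms the placenta, and amnion is the epithelium that encloses the embryo. Yolk sac endoderm lines the yolk sac and, like the fetal liver after it, secretes plasma proteins such as alpha-fetoprotein and the apolipoproteins. Keratins are filament proteins of epithelia: KRT8, KRT18, KRT19 and KRT7 belong to simple epithelia, and KRT5, KRT14, KRT15 and KRT17 to the basal layer of stratified ones. Human embryonic stem cell cultures are themselves epithelial sheets, and cells that leave the pluripotent state in them can take up any of these fates, trophoblast and amnion fates above all after BMP treatment.

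Every value below is a log2 signal, that is log2 of the deposited intensity plus a pseudocount of 1.81, after quantile normalization of the 8 arrays, and every difference is small minus large on that scale. Folds of dim genes are therefore understated, and levels are relative to the RNA hybridised, so that fewer cells of a type and less RNA per cell cannot be told apart. Probe sets differ in how strongly they bind, so a brighter signal of 1 gene than of another is no measure of a higher transcript level. Before normalization the 75th percentile of the arrays ran from 42.0 to 106 intensity units, and it did not separate small from large arrays (exact two-sided permutation p = 0.714). The mean log2 difference between 3 prime and 5 prime control probe sets of GAPDH and ACTB, a sign of RNA quality, was 1.95 to 2.66 on the small arrays and 1.83 to 1.89 on large arrays 2 to 4, with 2.92 on large array 1 (exact two-sided permutation p = 0.40). Its part in the differences below was not tested beyond a fit with it as a covariate. All 10 markers of pluripotent cells that had a probe set, of 12 listed, were measured above the filter on dim probe sets. Of these, 1 was lower in small cells and none higher, the sialomucin gene PODXL (-0.98 ± 0.15 SE, adjusted p = 0.00754).

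Of the 45 genes, 34 had a probe set above that filter, the 40th percentile of the mean log2 signal (3.62), and 9 did not, while TP63 and KRT17 were not analysed here. None of the 34 passed the test at an adjusted p of 0.05 (limma, Benjamini-Hochberg over 14726 genes). Over all genes tested 1.99% passed, 0.299% as higher and 1.69% as lower in the small fraction. These were 44 higher and 249 lower genes, where scaling to the 75th percentile gave 62 higher and 148 lower. At an unadjusted p under 0.05, 5 of the 34 genes were higher and 3 lower, where 16.5% of all genes reached that level in either direction. The median difference was -0.10 over the 12 tested trophoblast and amnion genes, 0.21 over the 14 tested yolk sac endoderm genes and -0.01 over the 8 tested keratin and epithelial genes, against 0.05 over all genes. At the level of probe sets, 1 of the 60 tested was lower and none higher, against 1.50% of all probe sets in either direction and 1.30% lower, and that one belonged to APOE. The fractions did not overlap at all for TTR and VIL1, 2 of the 34 genes, with all small values above, as for 4.94% of all genes. Nor did they for SPARC and CYP19A1, another 2, with all small values below, as for 5.07% of all genes.

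**Figure D1:**
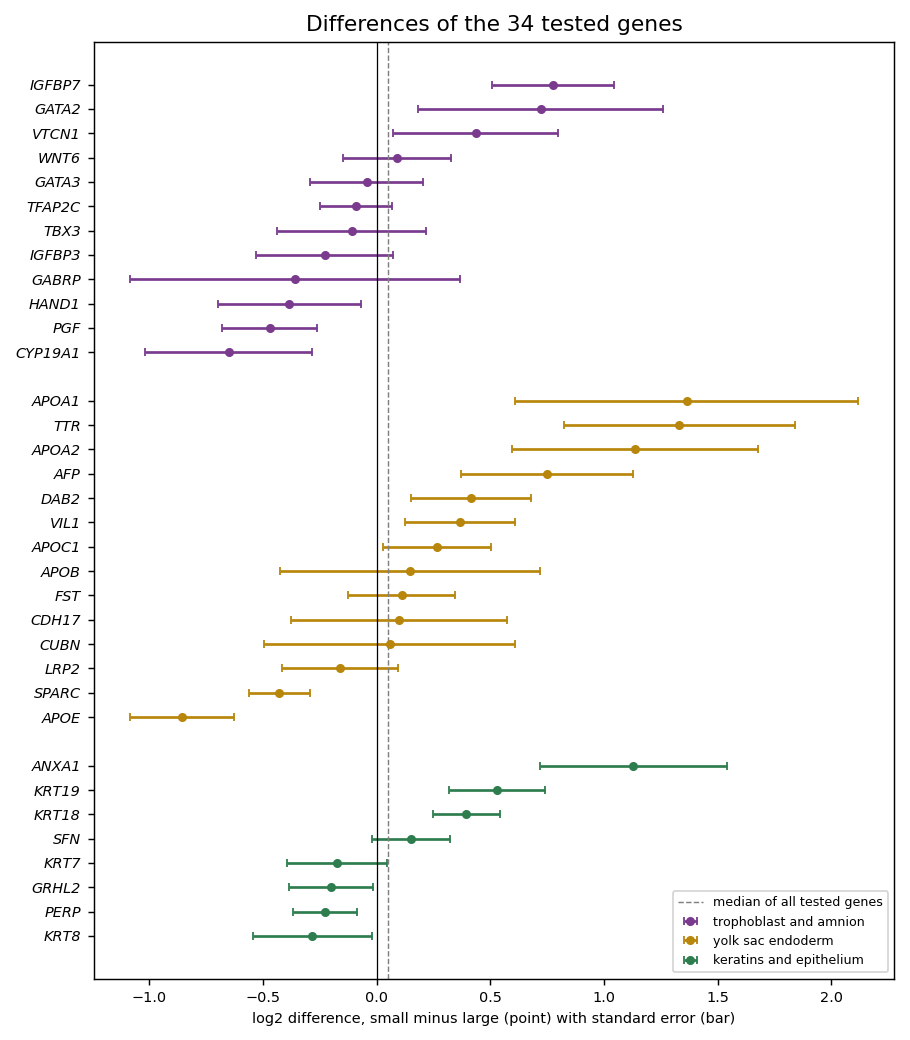
Differences of the 34 tested genes between small and large cells on the log2 scale (horizontal axis), with moderated standard errors as bars (4 arrays per group), grouped as trophoblast and amnion, yolk sac endoderm, and keratins and epithelium. The points run from -0.86 for APOE to 1.36 for APOA1, and the dashed line marks the median of all tested genes, 0.05.

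The spread between sorts of 1 fraction was large for several of these genes and lay on particular arrays. The number 4 sort was the lowest of its fraction among the small arrays and also among the large arrays for 10 of the 34 genes, compared with 4.70% of all genes. For the number 3 sort the same held for 5 genes, where 8.81% of all genes did so. The number 4 genes were AFP, TTR, APOA1, APOA2 and APOB of yolk sac endoderm, GABRP, HAND1 and IGFBP3 of trophoblast and amnion, and KRT19 and SFN. The same held for 27.3% of the 11 tested fibroblast markers, the matrix genes COL3A1, DCN and LUM, and for 17.6% of the 17 tested BMP pathway genes. Of the further genes described below, it held for 15.8% of 19 trophoblast and amnion genes and 9.09% of 22 yolk sac endoderm genes. For the 21 further genes of the epithelial list and the 10 pluripotency markers tested, the share was 0%. Among the fibroblast markers, COL1A1, THY1, FBN1 and S100A4 were instead at their highest small value on small array 4. The summed linear signal of the 11 fibroblast markers was lowest on the number 3 sorts (1290.8 in small, 1541.1 in large). On the number 4 sorts it was 1859.8 and 1616.5. The part of fibroblast-like RNA in the low number 4 values was not tested. This grouping was noticed in the data, and the labels do not say what equally numbered sorts had in common.

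Among the yolk sac endoderm genes, transcripts of secreted plasma proteins other than ALB were measured in both fractions. On large array 4 the values of APOA1 (2.89), TTR (2.45) and APOB (3.41) lay below the filter level of 3.62. APOA1, the main protein of high-density lipoprotein, had log2 signals of 7.70, 7.17, 7.72 and 5.10 on small arrays 1 to 4, against 6.14, 7.03, 6.18 and 2.89 on large arrays 1 to 4. Array 4 was lowest in both fractions, and the 2 ranges overlapped. The difference was 1.36 ± 0.75 SE (n = 4 per group, adjusted p = 0.397), or 2.57-fold, the small arrays averaging 6.92 ± 1.24 and the large arrays 5.56 ± 1.83 (SD). With 1 array left out it ran from 0.47 without large array 4 to 1.98 without small array 4.

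APOA2, its partner in the same particles, was at 8.31, 7.19, 7.77 and 5.57 on the small arrays and at 6.51, 6.62, 6.60 and 4.57 on the large arrays. The 3 highest small values exceeded every large value, and small array 4 lay below 3 of the large arrays. The difference of 1.14 ± 0.54 SE did not pass (adjusted p = 0.314), and it was 0.64 without large array 4 and 1.70 without small array 4. AFP, the alpha-fetoprotein gene whose product is the main plasma protein of the fetus, was at 7.67, 7.30, 7.24 and 5.81 on the small arrays, against 6.66, 6.85, 6.06 and 5.46 on the large arrays. Again array 4 was lowest in each fraction, and the groups overlapped through small array 4 (0.75 ± 0.38 SE, adjusted p = 0.343). The AFP difference was 0.49 without large array 4 and 1.15 without small array 4.

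TTR, which carries thyroid hormone and retinol-binding protein in plasma, was at 6.32, 5.76, 5.24 and 5.22 on the small arrays and at 5.19, 4.96, 4.62 and 2.45 on the large arrays. These groups did not overlap, though by only a narrow margin between small array 4 and large array 1. The difference was 1.33 ± 0.51 SE (2.52-fold, adjusted p = 0.208), and it was 0.71 without large array 4. APOB, the protein of low-density lipoprotein, was also lowest on the number 4 sorts, and its fractions overlapped: it was at 5.91, 5.67, 6.07 and 3.96 on the small arrays and at 6.08, 6.09, 5.45 and 3.41 on the large arrays (0.15 ± 0.57 SE, adjusted p = 0.934). AFP, APOA1, APOA2 and APOB are given array by array because of values seen on the number 4 sorts. Without small array 4 and large array 4, a setting added after the data were seen, the differences were 0.89 for AFP, 0.86 for TTR, 1.08 for APOA1, 1.19 for APOA2 and 0.01 for APOB, and none of these passed.

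The sequences upstream of AFP and APOA2 are shown because both genes were lowest on the number 4 sorts, and because HNF1 and FOXA factors are known to bind near genes of this kind in liver and yolk sac. Each run is the 250 bases before the annotated start in RefSeq's GRCh38.p14, in gene orientation. AFP lies on the plus strand (chr4:73435971-73436220) and APOA2 on the minus strand (chr1:161223629-161223878). Capitals mark matches on either strand to the HNF1 half-sites GTTAAT and GTTAAC, to the FOXA motif TGTTTAC or to the TATA box TATAAA, and no 2 matches shown overlap.
AFP: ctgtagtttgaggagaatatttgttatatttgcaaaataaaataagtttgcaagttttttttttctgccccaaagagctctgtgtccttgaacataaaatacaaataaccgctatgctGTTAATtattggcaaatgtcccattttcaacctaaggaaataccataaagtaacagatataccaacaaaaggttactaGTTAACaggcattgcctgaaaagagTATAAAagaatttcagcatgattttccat
APOA2: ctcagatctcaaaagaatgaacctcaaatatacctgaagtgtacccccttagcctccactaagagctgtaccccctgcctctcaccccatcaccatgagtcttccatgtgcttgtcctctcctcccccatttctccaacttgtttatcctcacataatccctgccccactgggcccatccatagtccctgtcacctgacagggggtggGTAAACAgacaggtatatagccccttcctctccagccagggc
The AFP window held both half-sites and the TATA box, and the APOA2 window held the FOXA motif in reverse complement. Promoters were on hand for 30 of the 45 genes. GTTAAT was in the same window of 4 of the 30 (AFP, ALB, CGA and DAB2) and of 6.23% of 35116 promoters. GTTAAC was in 1 of the 30 and 2.31% of all, TGTTTAC in 4 of the 30 (APOA2, CDX2, ELF5 and PERP) and 2.98% of all, and TATAAA in 3 of the 30 and 10.7% of all. A match describes these letters only and was not tested for binding.

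**Figure D2:**
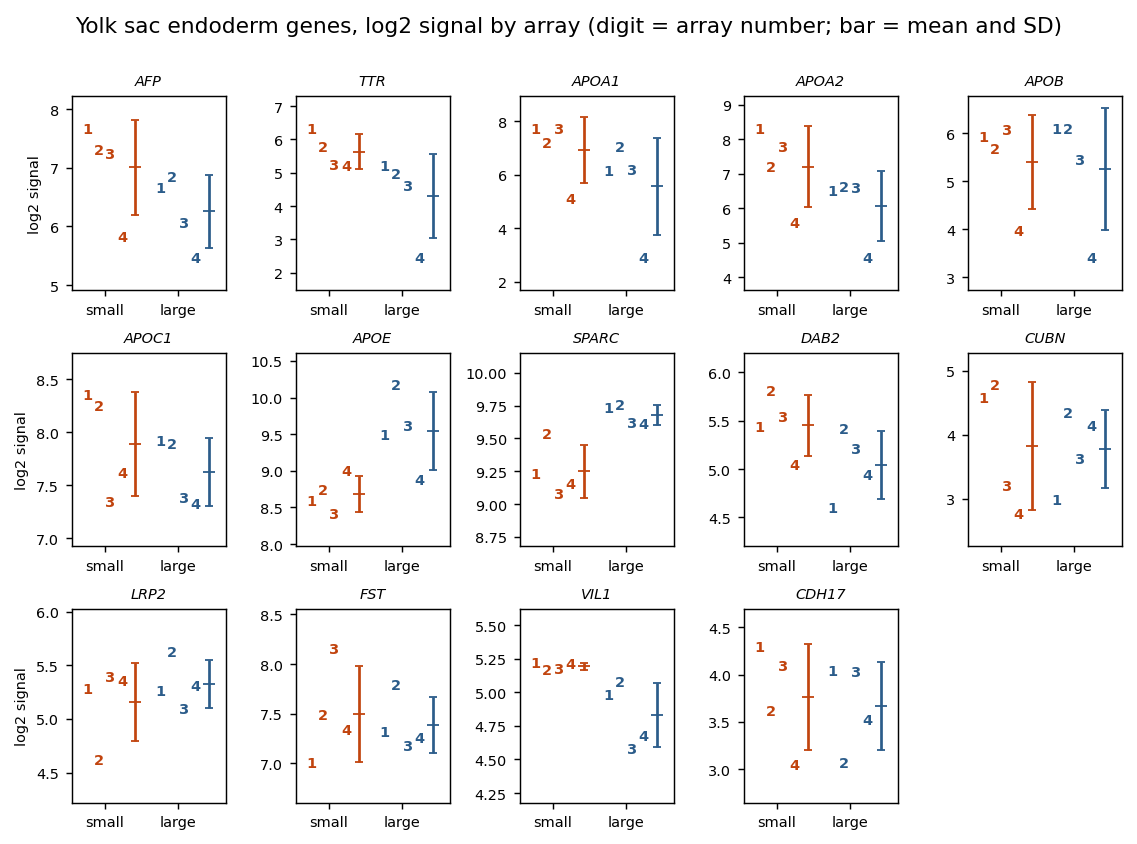
Log2 signal (vertical axis, own scale per gene) of the 14 tested yolk sac endoderm genes on each array, with the digit giving the array number, small cells left of large cells, and the bar the mean and SD of 4 arrays. Array 4 is the lowest of both fractions for AFP, TTR, APOA1, APOA2 and APOB, and all 4 large values of SPARC lie above its small ones.

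APOE and SPARC had lower average signals in small cells. APOE, a lipoprotein ligand that many cell types make, was measured by 3 tested probe sets, and all 3 were lower in small cells on average. Probe set 203381_s_at was at 7.34, 7.47, 6.59 and 7.53 on the small arrays, against 8.34, 8.37, 9.16 and 8.10 on the large arrays. Its groups did not overlap, and it passed over all probe sets (-1.26 ± 0.25 SE, n = 4 per group, limma adjusted p = 0.0309). The call was kept in 2 of 8 fits with 1 array left out, whose adjusted p ran from 0.0324 to 0.0885, and it was lost without small array 1, 2 or 3 and without large array 2, 3 or 4. The brightest APOE probe set, 203382_s_at, stood for the gene and was at 8.59, 8.73, 8.41 and 9.00 on the small arrays and at 9.50, 10.17, 9.61 and 8.87 on the large arrays. Large array 4 fell among the small values, and the gene did not pass (-0.86 ± 0.23 SE, adjusted p = 0.0767). It did without large array 4 (-1.08, adjusted p = 0.0397), while adjusted p ran up to 0.189 with other single arrays left out. The third probe set had a difference of -0.53 ± 0.24 SE. Names of 2 of the 3 end in _s_at and of 1 in _x_at, endings that mark possible binding to more than 1 transcript. APOC1, a small apolipoprotein whose gene neighbours APOE on chromosome 19, was at 8.35, 8.25, 7.35 and 7.62 on the small arrays and at 7.91, 7.89, 7.38 and 7.32 on the large arrays, with a difference of 0.26 ± 0.24 SE (adjusted p = 0.636).

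SPARC, a secreted matrix protein of parietal endoderm and of many mesenchymal cells, was at 9.23, 9.53, 9.08 and 9.15 on the small arrays and at 9.73, 9.75, 9.62 and 9.61 on the large arrays. Every large value lay above every small one, yet the difference of -0.43 ± 0.14 SE did not pass (adjusted p = 0.128), and a second probe set gave -0.17 ± 0.19 SE. VIL1, an actin-bundling protein of absorptive microvilli, was at 5.22, 5.17, 5.17 and 5.21 on the small arrays and at 4.98, 5.08, 4.58 and 4.68 on the large arrays. Those groups did not overlap either (0.37 ± 0.24 SE, adjusted p = 0.496), but its other 3 tested probe sets had differences of opposite sign, from -0.34 to -0.27. The endocytic receptors CUBN and LRP2 and their adaptor DAB2, which take up proteins in visceral endoderm, had differences of 0.06 ± 0.55, -0.16 ± 0.26 and 0.41 ± 0.26 SE, with both fractions overlapping. The activin antagonist FST was at 0.11 ± 0.24 and the intestinal cadherin CDH17 at 0.10 ± 0.48. ALB, the albumin gene beside AFP on chromosome 4, stayed below the filter on all 4 of its probe sets, whose means were 2.04 to 2.78.

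Of the 17 trophoblast and amnion genes with a probe set, 5 were not measured above the filter and 12 were. CGA, the alpha subunit of chorionic gonadotropin, GCM1, which drives syncytiotrophoblast formation, ELF5 and CDX2, factors of trophoblast stem cells, and HSD3B1, a steroid enzyme of the placenta, were below the filter on every probe set. Their probe set means lay between 1.93 and 3.43, and no call was made for them. GCM1, which had the highest mean of these 5 genes, was picked after its values were seen. It was at 4.48, 4.02, 3.08 and 4.34 on the small arrays, against 3.93, 2.21, 2.08 and 3.26 on the large arrays. Its fractions overlapped. CYP19A1, the aromatase of syncytiotrophoblast, had 1 of 7 probe sets above the filter. That one was at 3.52, 4.11, 3.42 and 4.03 on the small arrays and at 4.49, 4.68, 4.11 and 4.40 on the large arrays. The groups met at 4.11 without crossing, and small arrays 1 and 3 lay below the filter level of 3.62. The difference of -0.65 ± 0.37 SE did not pass (adjusted p = 0.409).

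TFAP2C, an AP-2 factor shared by trophoblast, germ cells and naive pluripotent cells, had overlapping values in a narrow range: 8.21, 7.87, 8.30 and 8.31 on the small arrays and 8.36, 8.45, 8.07 and 8.17 on the large arrays (-0.09 ± 0.16 SE, adjusted p = 0.831). PGF, a VEGF-family growth factor of the placenta, was at 9.04, 9.04, 8.71 and 9.38 on the small arrays, against 9.83, 9.96, 9.08 and 9.19 on the large arrays. Large arrays 1 and 2 stood above all small arrays, and large arrays 3 and 4 fell among them (-0.47 ± 0.21 SE, adjusted p = 0.278). These values come from a probe set of the _x_at kind. A second PGF probe set, below the filter and so not tested, had a difference of opposite sign, 0.94. It was at 1.46 to 4.28 on the small and 1.73 to 3.58 on the large arrays. IGFBP3, a secreted IGF-binding protein, was at 6.66, 6.94, 6.60 and 6.29 on the small arrays and at 7.26, 7.63, 6.53 and 5.99 on the large arrays. Its large values spread on both sides of the small ones (-0.23 ± 0.30 SE, adjusted p = 0.763).

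IGFBP7, a related secreted protein, had the smallest p of the trophoblast and amnion genes, and it is given in full for that reason. It was at 6.99, 7.14, 6.34 and 7.35 on the small arrays and at 6.43, 6.66, 5.54 and 6.09 on the large arrays. Small array 3 was the only small value inside the large range (0.78 ± 0.27 SE, adjusted p = 0.166). Its second tested probe set had a difference of 1.82 ± 0.57 SE, with 2.72 and 3.56 on large arrays 3 and 4, and did not pass either (adjusted p = 0.141). GABRP, a GABA receptor subunit found in amnion and given for its low number 4 sorts, was at 5.85, 5.47, 4.97 and 2.90 on the small arrays and at 6.66, 5.93, 5.07 and 2.97 on the large arrays. The spread within each fraction exceeded the difference of -0.36 ± 0.73 SE (adjusted p = 0.856). HAND1, a factor of amnion and extraembryonic mesoderm, was also lowest on array 4 of each fraction (4.82 in small, 5.06 in large) and had a difference of -0.38 ± 0.32 SE. The remaining genes of the group ranged in difference from -0.11 for TBX3, a T-box factor, through -0.04 for GATA3, 0.09 for the ligand WNT6 and 0.44 for the immune checkpoint ligand VTCN1, to 0.72 ± 0.54 SE for GATA2. The GATA2 difference was 0.19 without large array 4. Without large array 1 it was -0.02 on probe set 207954_at, and without large array 3 it was -0.08 on 210358_x_at. Those probe sets were the brightest in these 2 fits, so neither value shows the effect of leaving out 1 array alone. Adjusted p for the genes from TBX3 to GATA2, with all arrays, was 0.554 or more.

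**Figure D3:**
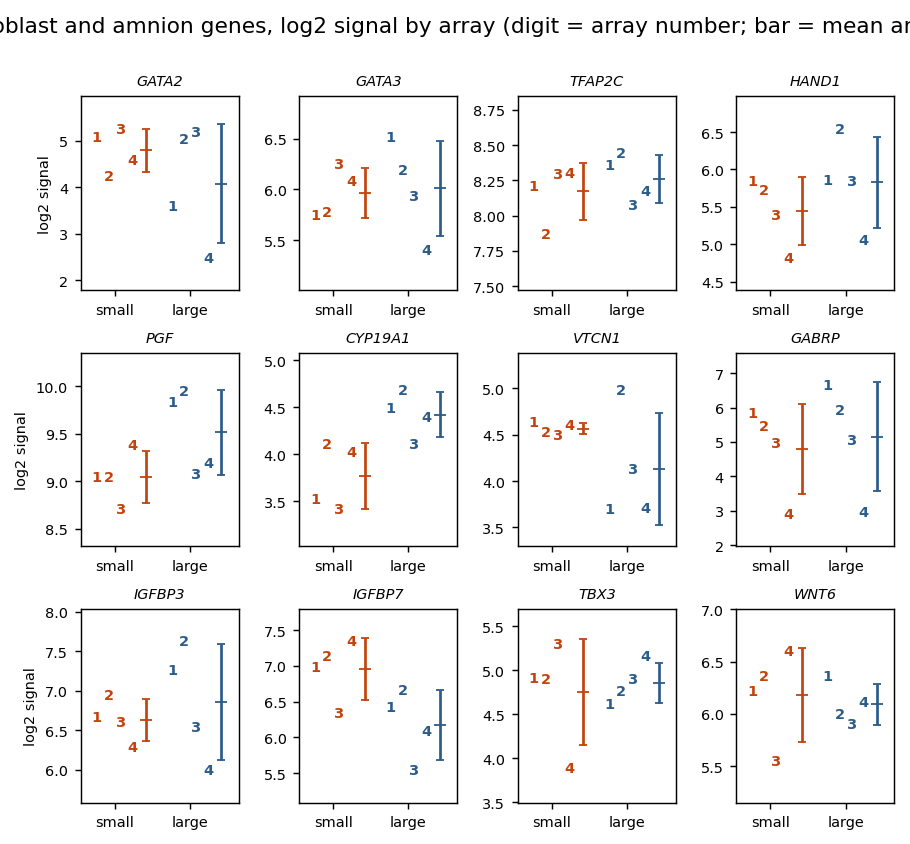
Log2 signal (vertical axis, own scale per gene) of the 12 tested trophoblast and amnion genes on each array, with the digit giving the array number, small cells left of large cells, and the bar the mean and SD of 4 arrays. GABRP ranges from 2.90 to 5.85 in small cells and from 2.97 to 6.66 in large cells, and TFAP2C stays between 7.87 and 8.45.

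Keratins of simple epithelia were measured in both fractions, whereas KRT5, KRT14 and KRT15 of basal epithelia stayed below the filter, with means of 2.52 to 3.51. KRT18 was at 11.65, 11.91, 11.92 and 11.57 on the small arrays and at 11.62, 11.58, 10.98 and 11.28 on the large arrays. Small array 4 lay below the 2 highest large values, and the difference of 0.39 ± 0.15 SE did not pass (adjusted p = 0.193). Its filament partner KRT8, whose gene lies beside it on chromosome 12, was at 8.80, 9.23, 8.16 and 9.15 on the small arrays and at 8.68, 9.73, 9.32 and 8.74 on the large arrays. Large arrays 2 and 3 lay above every small value and small array 3 below every large one, with the rest overlapping (-0.28 ± 0.26 SE, adjusted p = 0.647). Each of the pair had 1 probe set, of the _x_at kind, and keratins have close relatives, so neither value is sure to be of 1 transcript. KRT19 was at 9.31, 9.22, 8.85 and 8.72 on the small arrays and at 8.85, 8.79, 8.42 and 7.93 on the large arrays, a difference of 0.53 ± 0.21 SE (adjusted p = 0.226). KRT7, found in trophoblast and ductal epithelia, had a difference of -0.17 ± 0.22 SE.

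Of the other epithelial genes, ANXA1, a calcium-dependent phospholipid-binding protein, had the largest difference. It was at 7.55, 9.00, 7.28 and 8.18 on the small arrays and at 6.34, 7.99, 6.04 and 7.13 on the large arrays. Arrays 2 and 4 were the higher ones of each fraction, and the groups overlapped (1.13 ± 0.41 SE, 2.19-fold, adjusted p = 0.188). A second ANXA1 probe set, below the filter and so not tested, ran the other way, at 1.39 to 2.36 on the small and 2.68 to 4.03 on the large arrays. PERP, a membrane protein of desmosomes, was at 9.43, 9.99, 9.53 and 9.73 on the small arrays and at 9.79, 10.0007, 9.89 and 9.92 on the large arrays, a difference of -0.23 ± 0.14 SE (adjusted p = 0.459). GRHL2, a factor that maintains epithelial junctions, was at -0.20 ± 0.18 SE and SFN, the epithelial 14-3-3 protein, at 0.15 ± 0.17 SE. KRT19 and ANXA1 are given array by array because they reached an unadjusted p under 0.05.

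**Figure D4:**
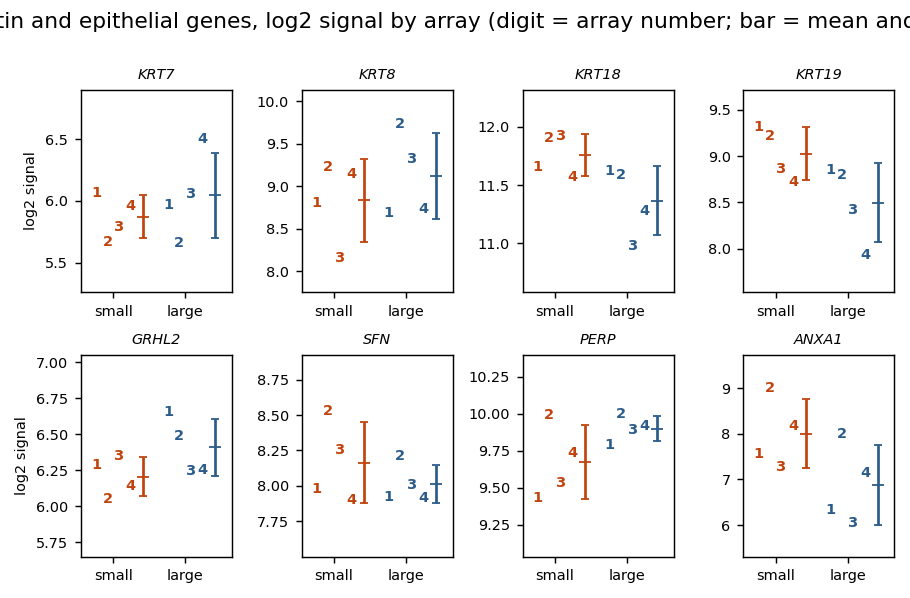
Log2 signal (vertical axis, own scale per gene) of the 8 tested keratin and epithelial genes on each array, with the digit giving the array number, small cells left of large cells, and the bar the mean and SD of 4 arrays. KRT18 stays between 10.98 and 11.92, and ANXA1 is higher on arrays 2 and 4 of both fractions.

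Of the 34 tested genes, 17 had more than 1 tested probe set, and in 6 of these the probe sets differed in sign: GATA3, TBX3, DAB2, FST, VIL1 and PERP. All tested probe sets of APOA1, APOA2, APOC1, IGFBP7 and SFN had positive differences, and those of APOE, SPARC, IGFBP3, LRP2 and KRT7 negative ones. GATA2 had 3 positive differences, from 0.04 to 0.72.

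**Figure D5:**
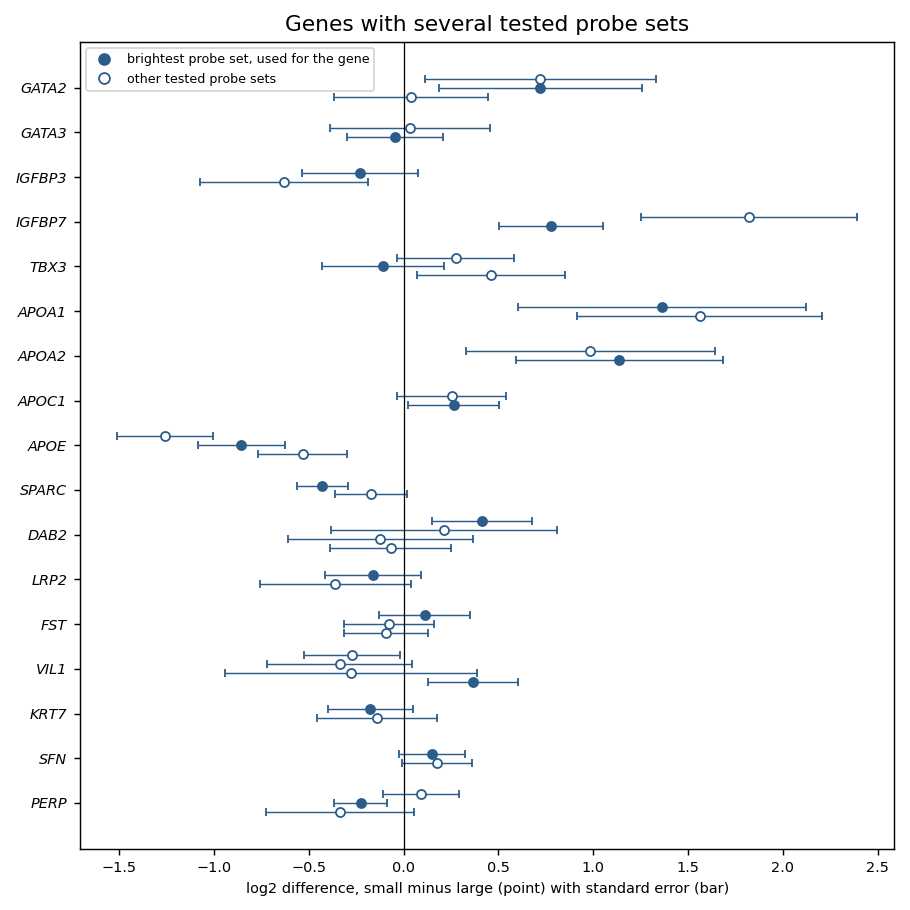
Difference between small and large cells on the log2 scale (horizontal axis, with standard errors as bars) for every tested probe set of the 17 genes that had several; filled points are the brightest probe sets, which stood for their genes. The 3 APOE points run from -1.26 to -0.53 and the 2 IGFBP7 points from 0.78 to 1.82, whereas VIL1 has points on both sides of 0.

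Other genes of these programmes, listed with earlier results of these data known, are to be read against the 1.99% of all genes that passed, 0.299% higher and 1.69% lower. Of 19 further trophoblast and amnion genes tested, 1 was higher and none lower. It was TEAD4, a factor of trophoblast specification in the mouse, at 8.36, 8.83, 8.08 and 8.60 on the small arrays and 7.74, 7.91, 7.60 and 7.63 on the large arrays, which did not overlap (0.75 ± 0.18 SE, adjusted p = 0.0497). With its probe sets averaged, the TEAD4 difference was 0.31 and did not pass (adjusted p = 0.403). Its call was kept in 1 of 8 fits with 1 array left out, the one without small array 3 (adjusted p = 0.0291), and adjusted p reached 0.148 without large array 4. Of 22 further yolk sac endoderm genes, 2 were lower and none higher: the basement membrane laminin chain LAMC1 (-1.32 ± 0.20 SE, adjusted p = 0.00754) and the protease CTSV (-0.78 ± 0.17 SE, adjusted p = 0.0383). LAMC1 kept its call with each array left out, and CTSV in 2 of 8 fits (adjusted p from 0.0181 to 0.13). Scaled to the 75th percentile, LAMC1 passed (adjusted p = 0.0185) and CTSV did not (adjusted p = 0.0998). No gene on the array passed on the deposited scale, after median centring or without a variance trend. Adjusted p for LAMC1 was 0.236 after median centring and 0.0925 without the trend. The median of these 22 genes was 0.18.

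Of 21 further genes of the epithelial list tested, 3 were lower and none higher, all of them surface adhesion proteins. EPCAM, the epithelial cell adhesion molecule, was at 10.84, 11.00, 11.02 and 10.97 on the small arrays and at 11.30, 11.48, 11.61 and 11.60 on the large arrays, with no overlap (-0.54 ± 0.11 SE, adjusted p = 0.0236). The integrin ITGA6, a laminin receptor, differed by -0.75 ± 0.15 SE (adjusted p = 0.023). E-cadherin, CDH1, differed by -1.19 ± 0.24 SE (adjusted p = 0.0262). Scaled to the 75th percentile, EPCAM was at -0.33 (adjusted p = 0.214) and did not pass, nor did ITGA6 (adjusted p = 0.0683), while CDH1 did (adjusted p = 0.0439). With 1 array left out, EPCAM kept its call in 3 of 8 fits and CDH1 and ITGA6 in 4 each. The 21 genes included VIM, the gene of a mesenchymal filament protein. It was higher in small cells without overlap but did not pass (1.12 ± 0.30 SE, adjusted p = 0.0723). The median over these 21 genes was -0.05.

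None of 17 tested genes of the BMP pathway passed, and none had an unadjusted p under 0.05 (limma). BAMBI, a BMP pseudoreceptor, had a difference of -0.34 ± 0.21 SE and the antagonist GREM1 of 0.60 ± 0.40 SE. None of 11 fibroblast markers passed, with COL1A1 at -0.59 ± 0.28 SE (adjusted p = 0.31) and TWIST1 at 0.79 ± 0.29 SE (adjusted p = 0.182), and 1 of them had an unadjusted p under 0.05. The summed linear signal of these markers was 1291 to 2250 units on the small and 1541 to 3054 on the large arrays. The probe sets are for human transcripts and the feeders were mouse cells, so feeder RNA was not tested by them.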

How the data were processed

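RNA from 4 small and 4 large sorts of H1 cells was measured on 1-colour arrays. The authors deposited a linear intensity value for every probe set on each array; per the series' design text the scans went through GeneChip Operating Software and Rosetta Resolver. Background correction and scaling of these values are not given in the sources used here. Groups came from sample titles.

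The 62 control probe sets were left out, log2(intensity + 1.81) was taken (the 10th percentile of all values), and arrays were quantile normalized because their log2 75th percentiles spanned 1.33. Probe sets with a mean above the 40th percentile were tested (32768), and each gene was represented by its brightest tested probe set assigned to 1 symbol (GEO's platform annotation, symbols updated through RefSeq gene IDs). Small minus large was fitted with limma 3.58.1 in R 4.3.3 (lmFit, eBayes with a variance trend, two-sided, Benjamini-Hochberg, threshold 0.05) and tested on simulated data. The median standard error over genes was 0.24, and 4 arrays per group limit the precision. Array quality was compared with exact permutation tests over 70 assignments, whose smallest p is 0.0286. Nothing says that sorts came from separate cultures, so p-values measure the spread between these sorts.

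The genes, lists and alternatives were chosen with earlier results of these data known, and 1 alternative, leaving out both number 4 arrays, was added later. All 45 genes are accounted for. Given by array were genes with a called probe set, up to 4 per group whose fractions did not overlap, the 3 brightest per group, and further genes that the text says were picked from their values. From the further lists, called genes were named, or else the 2 with the smallest p.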

Additional observations from a re-analysis of the deposited data

Results flagged for a closer look

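In 7 of 142 groups of 4 arrays, 1 array stood apart from the other 3 by Dixon's test, and chance gives about 5% of groups. APOA2 (probe set 219466_s_at) was at 4.57 on large array 4, where the other large arrays were between 6.51 and 6.62. Large array 4 was also low for FST (207345_at) at 4.91 (others 5.41 to 5.50), VIL1 (1554945_x_at) at 3.54 (others 4.72 to 4.92) and PERP (217744_s_at) at 6.44 (others 7.07 to 7.15). GATA2 (207954_at) was at 1.78 on large array 1, with the others at 4.51 to 5.06. APOC1 (204416_x_at) was at 7.17 on small array 3, with the others at 7.78 to 7.88, and LRP2 (205710_at) at 4.62 on small array 2, with the others at 5.28 to 5.39.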

How the results depend on the processing

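Of the 34 tested genes, 21 kept the sign of their difference under all alternatives in which they were tested. The other 13 changed it at least once, none of them called on either side of the change. The brightest probe set was chosen anew in each fit, so a sign could change with the probe set, as for GATA2. With the replicate number as a block, 1 trophoblast and amnion gene (IGFBP7, higher), 4 yolk sac endoderm genes (AFP, APOA1 and APOA2 higher, APOE lower) and 2 keratin and epithelial genes (KRT19 and ANXA1, higher) passed, and calls rose to 753 over all genes, from 293, to 13 among the further listed genes, from 7, and to 8 among probe sets, from 1. Deviations of equally numbered sorts correlated at 0.11, 0.13, 0.23 and 0.01, which does not reach 0.1 in every pair, so the numbers were not taken to pair the sorts, although 6 of 8 arrays correlated best with their own number. Without large array 1 and small array 3, IGFBP7 passed (1 gene of its group), with 776 calls over all genes and 12 among further genes. Without both number 4 arrays, APOE passed (1 gene of its group), with 89, 1 and 0 calls over all genes, further genes and probe sets. With 1 array left out, calls ran from 0 to 1 for yolk sac endoderm genes (APOE without large array 4), from 62 to 553 over all genes (62 without small array 1, 82 without small array 2, 159, 83 and 74 without large arrays 2, 3 and 4, and 553 without large array 1), from 2 to 8 among further genes and from 0 to 2 among probe sets. Limma made 0 calls when arrays kept their deposited scale, when they were centred on the median, or when no variance trend was used, in each case over all genes, further genes and probe sets of the 45 genes, with 494, 1575 and 2234 of all genes at an unadjusted p under 0.05. On the deposited scale the median difference of all genes was -0.05, against 0.05 after quantile normalization. With RNA quality (3 prime minus 5 prime) as covariate, calls were 166 over all genes, 3 among further genes and 0 among probe sets. Without _x_at and _s_at probe sets there were 190 calls over all genes and 0 among probe sets. Scaling to the 75th percentile called 62 genes higher and 148 lower, where quantile normalization called 44 and 249. With 1 array left out the median difference ran from -0.18 to -0.01 for trophoblast and amnion, from 0.15 to 0.39 for yolk sac endoderm and from -0.04 to 0.22 for keratins and epithelium. Why calls moved between settings was not tested.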
